A study of Mus musculus with 12 samples.

Results

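Myelin is the multilayered membrane that oligodendrocytes wrap around axons in the central nervous system. It is built from a few very abundant proteins, such as myelin basic protein, and from galactolipids made by a short chain of enzymes. Oligodendrocytes switch these genes on late, when precursors stop dividing, under transcription factors that include SOX10 and MYRF, and the products are often used to recognise mature oligodendrocytes in brain tissue. The expression of 34 myelin and mature oligodendrocyte genes was examined here in sorted cells of RasV12 brain tumors and of control mouse cerebellum. The genes were chosen by name, as myelin proteins, enzymes of myelin lipids and genes of mature oligodendrocytes, out of 54547 genes in the table, and each had 1 row. All 34 passed the filter on low values, and 32 would have passed it without the control GFP+ libraries. The other 2, Gjb1 and Tmem125, passed only through the group where they are high, so they had to differ from it, and counts are also given without them.

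The series holds 12 RNA-seq libraries in 4 groups of 3. All mice were of a mixed 129;C57BL/6 background and carried Msi1-CreER, a tamoxifen-inducible Cre recombinase named for the neural stem cell gene Msi1. The control mice were Msi1-CreER;GFP and gave GFP+ cells and CD11b+ phagocytes from the cerebellum. The tumor mice were Msi1-CreER;RasV12, with the activated form of the RAS oncogene, and gave the same populations from tumors. Genotype and tissue of origin therefore differ together and cannot be told apart. The labels give no age, induction or time, nor what marks GFP+ cells in the RasV12 mice nor whether replicates were separate animals, so p-values measure only the spread between these libraries.

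Values are the authors' normalized counts, which are reads per gene scaled to make libraries comparable. Log2 fold changes are differences of group means of log2(normalized count + 1) and are given with their standard error (SE). The added 1 can understate the change of low genes, while a library at 0 beside higher ones can enlarge or turn it. In the tumors, Evi2a had a log2 difference of -1.31 ± 1.83 between CD11b+ and GFP+ cells, though the ratio of its means was 2.71. A gene was called higher or lower at a Benjamini-Hochberg adjusted p under 0.05 in limma's test over 29835 genes. The libraries held from 18519240 to 34432725 reads in genes for the GFP+ cells and from 7883870 to 34601205 for the control CD11b+ cells. The RasV12 CD11b+ libraries held 3642570, 2951629 and 23589310, so that 1 read was worth 4.46 and 5.54 normalized counts in the first and second of them. All 8 tested genes of a microglia and macrophage list were called higher in CD11b+ than in GFP+ cells of both genotypes. Itgam, which encodes CD11b, had 5009.8 to 5256 normalized counts in control and 1350.2 to 3101 in RasV12 CD11b+ cells, and at most 0.5 in any GFP+ library.

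Together the 34 genes took 5.271%, 6.513% and 4.429% of all normalized counts in the control GFP+ libraries. They took 0.357%, 0.491% and 0.375% in the RasV12 GFP+ libraries, 0.144% to 0.207% in control CD11b+ cells and 0.093% to 0.113% in RasV12 CD11b+ cells. Every control GFP+ library lay far above every library of the other groups. In bulk libraries, fewer cells of a type and less RNA per cell cannot be told apart. Per length, in FPKM, the authors' unit of fragments scaled by gene length and depth, Mbp led the control GFP+ cells with 5138 ± 2105 (SD, n = 3). Mobp followed with 1088 ± 491 FPKM, Cnp with 792 ± 122, Mog with 565 ± 30.5 and Mal with 514 ± 154. The spreads of Mobp and Cnp overlapped, as did those of Mog and Mal. Mbp alone made up 59.2% to 69.3% of the normalized counts of the 34 genes in control GFP+ cells and 1.4% to 20.5% in RasV12 GFP+ cells.

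**Figure D1:**
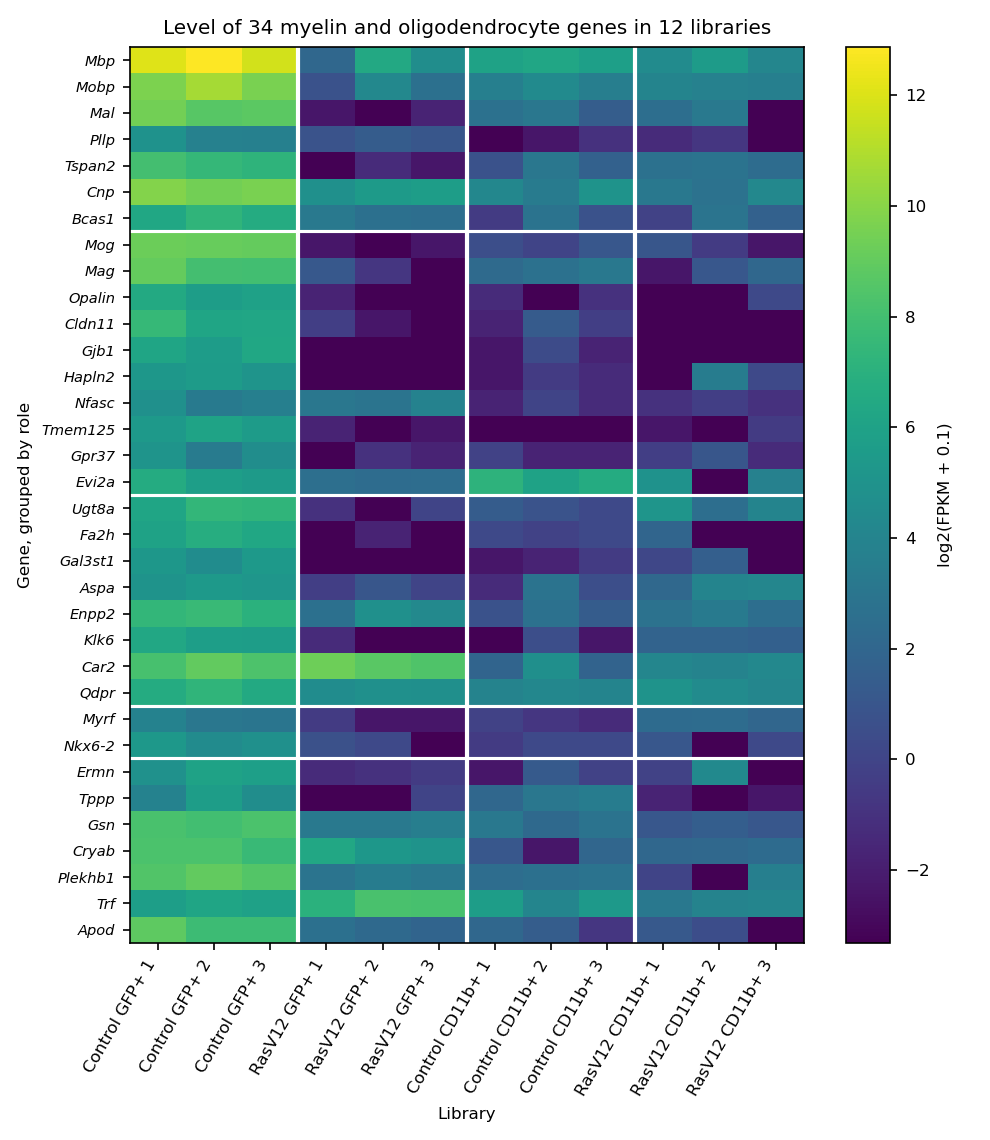
Level of the 34 genes (rows, grouped by role) in the 12 libraries (columns, grouped by population and genotype), coloured by log2(FPKM + 0.1). The rows are highest in the 3 control GFP+ libraries except where Car2, Trf, Nfasc and Evi2a reach a like or higher level in another group.

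In GFP+ cells, 26 of the 34 genes fell in RasV12 tumors, 1 rose and 7 were not called. Over all genes tested, 2.65% were called lower and 4.14% higher. The median log2 fold change of the 34 genes was -7.11, beside 0.56 over all genes. Without Gjb1 and Tmem125, 24 of 32 fell and the median was -6.51. Set against their control means, 17 genes stood at under 1% in RasV12 GFP+ cells, 10 at 1% to 10%, 5 at 10% to 100% and 2 above 100%. In the same comparison the summed counts of 8 neuron genes went from 70402.8–90451.9 to 1971.2–3060.4, with 6 called lower. The 8 astrocyte and Bergmann glia genes went from 265771.5–284216 to 36789–94744.3, with 3 called lower, and the 4 choroid plexus genes from 24304.9–114192.6 to 8.6–84.9, with 2 called lower. The 5 erythroid genes went from 8893.9–774410 to 82.9–506.8, with 4 called lower. Mitochondrial genes took 20.1% to 30.4% of normalized counts in control and 1.53% to 2.62% in RasV12 GFP+ cells. The part of these differences in the myelin result was not tested.

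**Figure D2:**
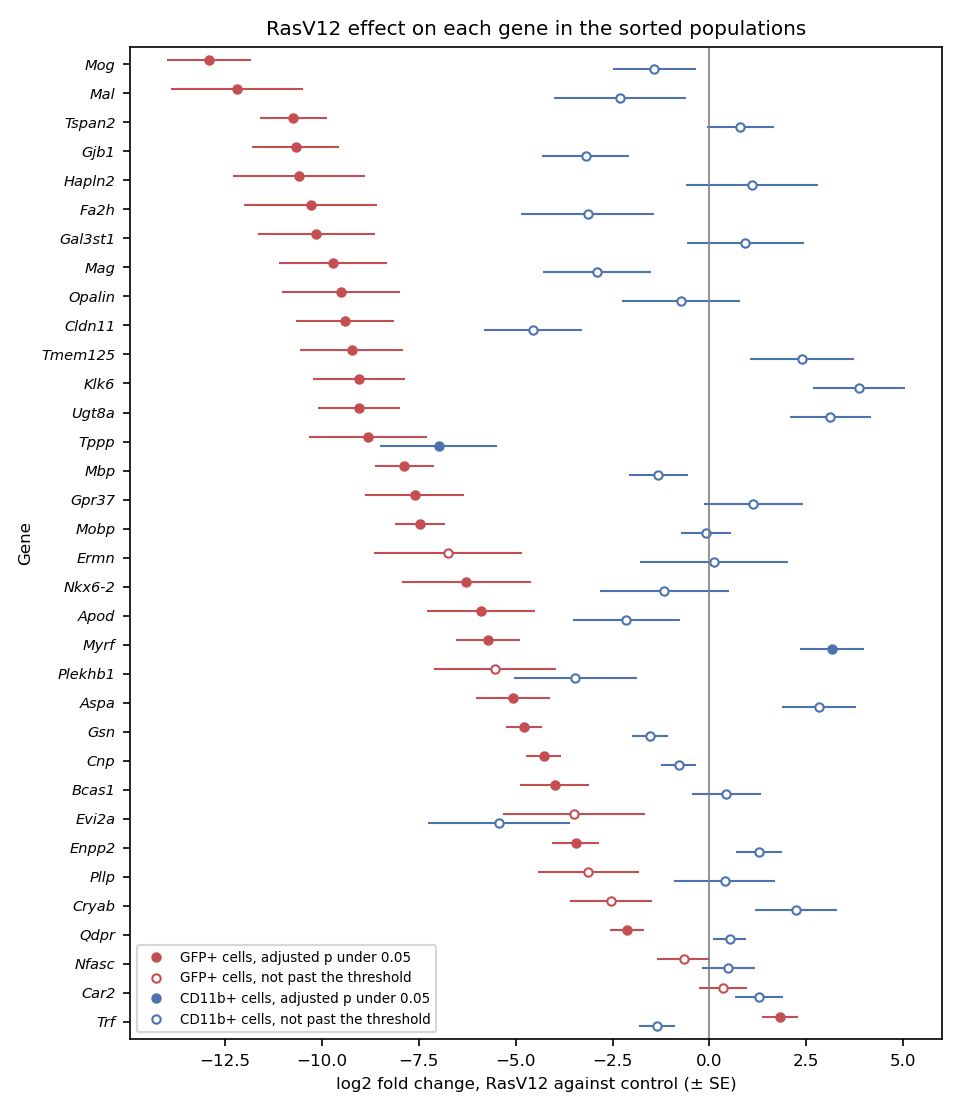
Log2 fold changes of the 34 genes in RasV12 against control (± SE), in red for GFP+ and blue for CD11b+ cells, filled where limma's adjusted p is under 0.05. In GFP+ cells 26 genes are called below 0 and Trf above it, while in CD11b+ cells the genes lie on both sides of 0 and Myrf and Tppp are called.

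Among the 7 proteins of compact myelin and its membranes, 6 fell and Pllp was not called. Mbp, myelin basic protein, which holds the cytoplasmic faces of the membrane together, had 612198, 1053425 and 493829 normalized counts in control GFP+ cells and 588.4, 12259 and 3431 in RasV12 GFP+ cells. All 3 RasV12 libraries lay far below the control libraries, and they differed widely among themselves. Mbp changed by -7.87 ± 0.76 (log2, SE; limma adjusted p = 8.74e-05). Mobp, another basic protein of compact myelin, went from 93354, 188946 and 90268 to 185.6, 2172 and 699.9, a log2 change of -7.47 ± 0.65 (limma adjusted p = 3.91e-05). The order of the RasV12 libraries was that of Mbp, with the first lowest and the second highest. Mal, a proteolipid of myelin rafts, had 32007, 18767 and 20688 normalized counts in control and 3.2, 1.7 and 9.7 in RasV12 GFP+ cells (-12.19 ± 1.71, limma adjusted p = 0.00105). Tspan2, a tetraspanin of the oligodendrocyte membrane, had 20713, 13902 and 11666 against 1.4, 25.2 and 9.7 (-10.74 ± 0.86, limma adjusted p = 2.95e-05). Both had few reads in every RasV12 GFP+ library, with no overlap between the groups.

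Cnp, a phosphodiesterase of the cytoplasmic channels of myelin, kept a measurable level. Its counts were 55915, 41231 and 47028 in control and 1728, 2731 and 3111 in RasV12 GFP+ cells, a log2 change of -4.28 ± 0.45 (limma adjusted p = 0.000167). The RasV12 libraries were close to each other and did not overlap the controls. Bcas1, a gene of early myelinating oligodendrocytes, fell by 3.99 ± 0.89 (limma adjusted p = 0.0155), but its adjusted p was 0.0595 without control GFP+ replicate 2, 0.0604 without RasV12 GFP+ replicate 2 and 0.0616 without replicate 3. Pllp, plasmolipin, had 1047, 486 and 452.7 normalized counts in control and 60.1, 86.6 and 64.7 in RasV12 GFP+ cells, without overlap (-3.12 ± 1.31, limma adjusted p = 0.202). An opposite-strand gene covers 54.2% of the exon bases of Pllp, and the label's library kits do not state a strand, so reads of the pair cannot be told apart. The same limit holds for smaller shares of other genes. Opposite-strand genes cover 18.6% of the exon bases of Qdpr, 17% of Cryab, 12.9% of Nkx6-2 and 11.7% of Bcas1.

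Of the 10 surface glycoproteins and junction or node proteins, 8 fell, Gjb1 and Tmem125 among them. Both passed the filter only through control GFP+ cells, so their falls are descriptions. Mog, myelin oligodendrocyte glycoprotein of the outermost myelin layer, had the largest log2(normalized count + 1) difference, while for genes with at most 1 read in RasV12 GFP+ cells only a bound or a wide ratio can be given. It had 16959, 15960.3 and 15234.5 normalized counts in control GFP+ cells and 2.7, 0 and 1.4 in RasV12 GFP+ cells. The control libraries were close to each other and the RasV12 libraries held almost no read (-12.92 ± 1.08, limma adjusted p = 3.39e-05). Mag, the glycoprotein that faces the axon, went from 35363, 18017 and 16953 to 139.5, 36.1 and 2.5 (-9.71 ± 1.4, limma adjusted p = 0.00126). Cldn11, the claudin of myelin tight junctions, went from 5880.3, 2283 and 2357 to 21.2, 1.7 and 0.7 (-9.4 ± 1.26, limma adjusted p = 0.00078). For both, the first RasV12 library was the highest of its group and still lay far below every control library.

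Hapln2, a link protein of the matrix at nodes of Ranvier, had 1497, 1875 and 1315 normalized counts in control GFP+ cells and no read in any RasV12 GFP+ library. With a floor of 3 reads over the group, that is at least 3539-fold lower. Gjb1, connexin 32 of oligodendrocyte gap junctions, had 2053, 1409 and 2269.7 in control and 1 read over the 3 RasV12 libraries, a ratio of 12850 with an exact 95% counting interval of 2305 to 507500. Intervals and floors cover counting error only. Opalin, an oligodendrocyte membrane protein of the paranodal loops, had 2861.5, 1605 and 1904 against 5, 0.6 and 1.4 (-9.5 ± 1.52, limma adjusted p = 0.00239). Tmem125, a membrane protein found in oligodendrocytes, had 1679, 2659 and 1849.5 against 8.1, 0 and 3.2. Gpr37, an orphan receptor of oligodendrocytes, had 3335, 1084 and 2482 against 0.5, 45.3 and 16.8 (-7.6 ± 1.28, limma adjusted p = 0.00314). None of these genes overlapped between the groups. For Gjb1 and Tmem125, which passed the filter only through control GFP+ cells, the values are descriptions.

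Nfasc and Evi2a were not called. Nfasc encodes neurofascin, whose glial form anchors paranodes and whose neuronal form lies at nodes, and the table gives 1 value for all forms. Its counts were 6719.5, 2258 and 3023.5 in control and 1957, 1725.5 and 3424 in RasV12 GFP+ cells, and the groups overlapped (-0.66 ± 0.68, limma adjusted p = 0.709). Evi2a had 3898, 2048 and 1733.5 against 228.5, 198.9 and 206.7, which did not overlap (-3.5 ± 1.83, limma adjusted p = 0.334). Its spread was shared with the CD11b+ groups, where 1 library was at 0, and the adjusted p was 0.00139 without RasV12 CD11b+ replicate 2. Evi2a lies within Nf1, on the other strand, and 19.2% of its exon bases are shared with Evi2.

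The promoters of 4 genes that were near or at 0 in RasV12 GFP+ cells are shown because they let the sequence at these start sites be read beside the values. Each runs 5′ to 3′ on the gene's strand from 250 bases before to 50 after the start, from RefSeq on GRCm38.p6, and all 4 genes are on the minus strand. They are chr17:37023349-37023648 for Mog, chr2:127656646-127656945 for Mal, chr3:88027462-88027761 for Hapln2 and chr19:41077064-41077363 for Opalin. Capitals mark 4 motifs searched on both strands, ACAAAG and ACAATG, which are forms bound by SOX factors, and CTGGCAC and CTGGTAC, which are forms bound by MYRF.
Mog: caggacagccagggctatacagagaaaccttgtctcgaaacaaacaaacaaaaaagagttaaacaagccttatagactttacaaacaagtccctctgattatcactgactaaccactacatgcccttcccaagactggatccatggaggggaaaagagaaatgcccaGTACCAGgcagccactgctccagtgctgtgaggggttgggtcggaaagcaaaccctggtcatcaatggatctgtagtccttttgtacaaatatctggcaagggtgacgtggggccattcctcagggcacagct
Mal: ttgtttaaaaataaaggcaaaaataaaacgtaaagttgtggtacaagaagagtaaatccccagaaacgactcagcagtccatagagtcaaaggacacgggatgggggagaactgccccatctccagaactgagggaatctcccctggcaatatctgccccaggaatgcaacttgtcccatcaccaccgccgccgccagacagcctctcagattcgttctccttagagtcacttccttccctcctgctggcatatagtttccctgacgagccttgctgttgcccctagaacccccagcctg
Hapln2: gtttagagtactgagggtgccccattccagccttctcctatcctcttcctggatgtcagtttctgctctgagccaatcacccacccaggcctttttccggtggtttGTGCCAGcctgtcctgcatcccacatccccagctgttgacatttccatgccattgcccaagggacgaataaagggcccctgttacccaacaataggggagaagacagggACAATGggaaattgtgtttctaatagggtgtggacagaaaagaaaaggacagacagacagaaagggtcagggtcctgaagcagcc
Opalin: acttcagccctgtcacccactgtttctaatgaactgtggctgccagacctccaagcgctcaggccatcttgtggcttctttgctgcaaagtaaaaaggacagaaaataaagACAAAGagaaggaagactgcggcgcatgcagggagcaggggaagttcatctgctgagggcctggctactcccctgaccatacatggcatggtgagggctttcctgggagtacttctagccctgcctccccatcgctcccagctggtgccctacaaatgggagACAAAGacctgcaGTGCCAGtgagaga
Mog held 1 MYRF form, whose first base was at -83 from the start. Hapln2 held a MYRF form at -144 and a SOX form at -35. Opalin held SOX forms at -139 and 23 and a MYRF form at 36. Mal held none of these letters in this window. RefSeq gave 38 promoters for 25 of the 34 genes, of which 15 held a SOX form and 7 a MYRF form. Over all 32851 mouse promoters of that length, 28.6% held a SOX form and 7.1% a MYRF form. The MYRF forms were in promoters of Cnp, Hapln2, Mag, Mog, Opalin and Tmem125. The matches are a description of letters and were not tested as sites.

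Of the 8 enzymes, 7 fell and Car2 was not called. Ugt8a, which makes galactosylceramide, had 5571, 12770 and 11704 normalized counts in control GFP+ cells and 28.9, 1.7 and 69.4 in RasV12 GFP+ cells (-9.04 ± 1.05, limma adjusted p = 0.000287). Fa2h, which adds the 2-hydroxyl group to the fatty acids of myelin lipids, had 3182, 5363 and 3958 against 0.9, 12 and 0.4 (-10.29 ± 1.72, limma adjusted p = 0.00305). Gal3st1, which turns galactosylceramide into sulfatide, had 1277, 798 and 1409 in control and no read in RasV12 GFP+ cells, at least 2606-fold lower. For all 3 enzymes the highest RasV12 GFP+ library lay far below the lowest control library. A list of 14 galactolipid genes outside the 34 holds general sphingolipid enzymes and lysosomal ones, and 1 of them was called lower in GFP+ cells and none higher. The lower one was Degs2, a sphingolipid hydroxylase, with 252.4, 827.6 and 386.6 against no read.

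The other enzymes kept more of their level. Aspa, which cleaves N-acetylaspartate, had 3187, 4084 and 3565 against 73.2, 188 and 86.9 (-5.07 ± 0.96, limma adjusted p = 0.00657). Enpp2, autotaxin, which makes lysophosphatidic acid, had 15973, 19699.9 and 12473.5 against 597.5, 2659 and 1892 (-3.45 ± 0.6, limma adjusted p = 0.00396). Qdpr, which regenerates tetrahydrobiopterin, had 2975.5, 4655 and 2772 against 692.7, 842.7 and 788.2 (-2.13 ± 0.43, limma adjusted p = 0.00932). The groups did not overlap for any of the 3, and Qdpr had the smallest change among the genes that fell. Klk6, a secreted serine protease of oligodendrocytes, was in contrast near 0, with 2109.6, 1393 and 1329.7 against 6.3, 1.1 and 0.7 (-9.05 ± 1.19, limma adjusted p = 0.000716). Car2, carbonic anhydrase 2, had 11477, 20025 and 13086 in control and 25420.4, 17490.1 and 13975 in RasV12 GFP+ cells. Its groups overlapped, and its log2 change was 0.35 ± 0.62 (limma adjusted p = 0.852). Per length, Car2 was the highest of the 34 genes in RasV12 GFP+ cells, at 470 ± 145 FPKM (SD, n = 3).

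Both transcription factors fell. Myrf, which activates myelin genes in oligodendrocytes, had 2080.5, 1213 and 1113 normalized counts in control and 89.9, 10.9 and 16.8 in RasV12 GFP+ cells, without overlap (-5.72 ± 0.83, limma adjusted p = 0.00132). Nkx6-2, a homeobox factor of myelinating oligodendrocytes, had 1267, 717.8 and 884.1 against 46.5, 36.1 and 0 (-6.27 ± 1.66, limma adjusted p = 0.0379). Its groups did not overlap, yet its call ended when any 1 of the 9 libraries outside the RasV12 CD11b+ group was left out. The adjusted p of Nkx6-2 was 0.0819 to 0.1 without a control GFP+ library, 0.0526, 0.0597 and 0.144 without RasV12 GFP+ replicates 1, 2 and 3, and 0.0513 to 0.0585 without a control CD11b+ library.

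Of the 7 cytoskeletal, chaperone, carrier and other genes, 3 fell, 1 rose and 3 were not called. Gsn, gelsolin, which severs actin, had 15651, 13083 and 16220.3 against 495.9, 490.1 and 642 (-4.79 ± 0.46, limma adjusted p = 8.74e-05). Apod, apolipoprotein D, had 20175, 9375 and 9363.5 against 271.4, 197.2 and 155.6 (-5.89 ± 1.39, limma adjusted p = 0.0212). Without control GFP+ replicate 1 or 2 its adjusted p was 0.07 and 0.0518, and without RasV12 GFP+ replicates 1, 2 and 3 it was 0.0648, 0.0713 and 0.0767. Tppp, a protein that nucleates microtubules in oligodendrocytes, had 1249.6, 4322 and 2067 against 0, 0.6 and 76.2 (-8.81 ± 1.52, limma adjusted p = 0.00373). The third RasV12 library stood apart from the other 2 for Tppp, and all 3 lay below the controls.

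Ermn, Plekhb1 and Cryab did not overlap between the groups but were not called. Ermn, an actin-binding protein of oligodendrocytes, had 1803, 3889 and 3473 against 18.5, 26.4 and 35.4 (-6.75 ± 1.91, limma adjusted p = 0.0507). Plekhb1, a membrane protein with a pleckstrin homology domain, had 22142, 31592.5 and 23377 against 453, 688.5 and 527.2 (-5.53 ± 1.58, limma adjusted p = 0.053). The small heat shock protein Cryab had 7601.5, 7848 and 4894 against 2068, 927.5 and 794 (-2.53 ± 1.06, limma adjusted p = 0.206). In each of these, all 3 RasV12 libraries lay below the lowest control library. The SE of Ermn was the largest of the 34 genes, and 1 of its RasV12 CD11b+ libraries stood at 1218 beside 49 and 0. Without RasV12 CD11b+ replicates 2 or 3 the adjusted p was 0.0136 and 0.00705 for Ermn and 0.00111 and 0.0084 for Plekhb1, and without control CD11b+ replicate 2 it was 0.0124 for Cryab. Neither Ermn nor Plekhb1 was called without any other 1 library, and they were past the threshold in 13 of 27 and 10 of 26 alternatives. In a fit of the GFP+ libraries alone, Pllp, Evi2a, Ermn, Plekhb1 and Cryab were called lower, with adjusted p of 0.0167, 0.0108, 0.00511, 0.00371 and 0.0308, and the call of Nkx6-2 ended, with 0.0835. Of the 27 genes called in GFP+ cells, 21 were called in the same direction under every alternative tried. The 21 include Gjb1 and Tmem125, which passed the filter only through control GFP+ cells, so their stability is a description. The exceptions were Bcas1, Aspa, Qdpr, Nkx6-2, Apod and Trf.

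Trf, transferrin, the iron carrier that oligodendrocytes make in the brain, was the gene that rose. It had 3052, 3989.9 and 3413 normalized counts in control GFP+ cells and 7169, 16491.5 and 15820.4 in RasV12 GFP+ cells, so that every RasV12 library lay above every control library. The mean in RasV12 GFP+ cells was 378% of the control mean, and the log2 change was 1.83 ± 0.46 (limma adjusted p = 0.0303). The adjusted p was 0.0639 to 0.0861 without any 1 control GFP+ library, 0.14 without RasV12 GFP+ replicate 2 and 0.125 without replicate 3. The gene Gm20425 covers 63.5% of the exon bases of Trf on the same strand, and no label says how reads shared by such genes were counted.

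**Figure D3:**
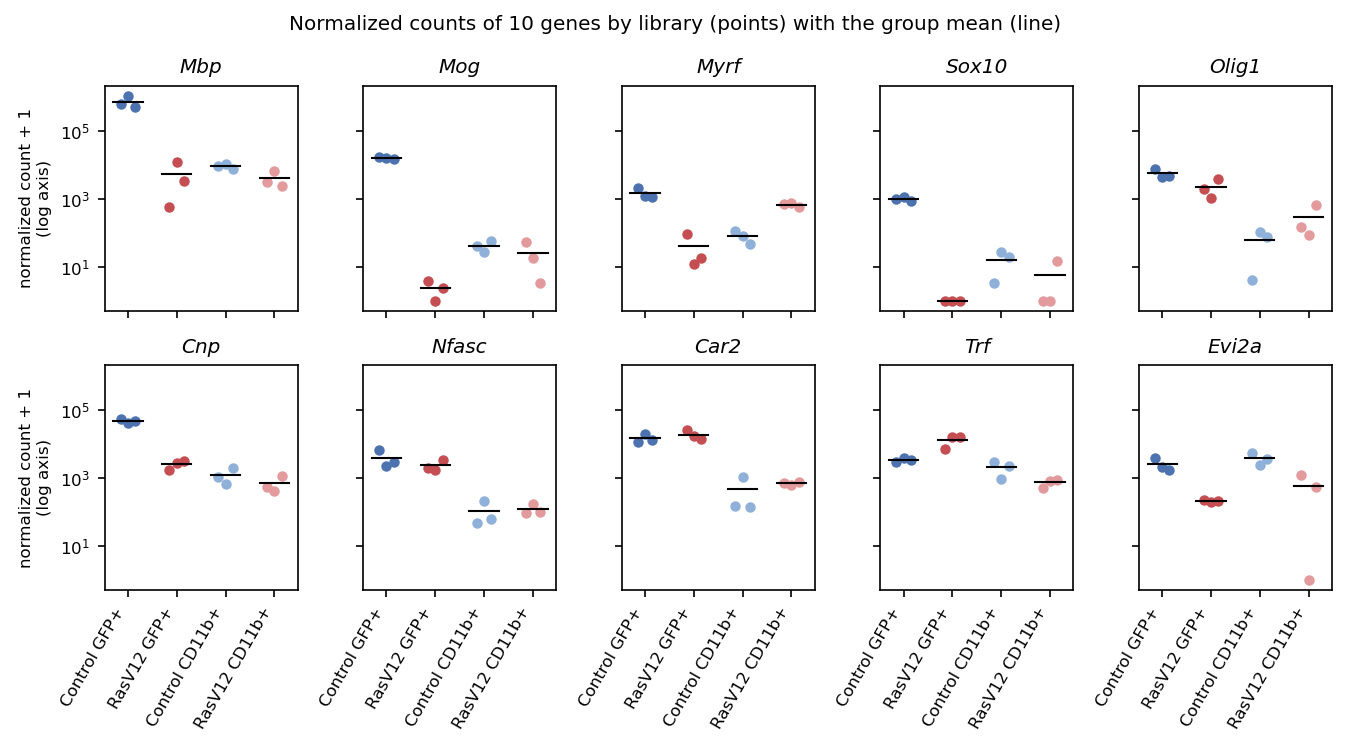
Normalized counts plus 1 on a log axis for 10 genes, with points for the 12 libraries and a line for each group mean. Mbp, Mog and Cnp are highest in control GFP+ cells, Sox10 has no read in the RasV12 GFP+ libraries, and Trf is highest in RasV12 GFP+ cells. Nfasc and Car2 stay high in both GFP+ groups, while Olig1 is lower in RasV12 GFP+ cells without overlap and was not called.

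Genes of the same lineage outside the 34 were read beside them. Of 20 tested genes of a second oligodendrocyte and myelin list, 10 were called lower in RasV12 GFP+ cells and none was called higher. Il33 went the other way without a call. Its counts were 232.2, 665.6 and 654.1 in control and 4464.9, 6760.8 and 8771.9 in RasV12 GFP+ cells, without overlap. Padi2, a protein-citrullinating enzyme, had 1284, 1792 and 1019 against 11.3, 12 and 29.3 (-6.3 ± 0.71, limma adjusted p = 0.000258). Sirt2, a tubulin and histone deacetylase abundant in myelin, had 22780.1, 17765.5 and 12645 against 1339, 1541 and 1398 (-3.6 ± 0.49, limma adjusted p = 0.000928). Neither gene overlapped between the groups. Of 16 precursor and early lineage genes, 3 were called lower and none was called higher. Sox10, the SRY-box factor needed for oligodendrocyte differentiation, had 977, 1139.6 and 868.8 in control and no read in any RasV12 GFP+ library, at least 2255-fold lower. Gpr17, a receptor of newly committed oligodendrocytes, had 93.8, 619.9 and 993.9 in control and 1 read in RasV12 GFP+ cells, a ratio of 3293 (exact 95% counting interval 590.4 to 130100). The lineage factors Olig1 and Olig2 and the precursor receptor Pdgfra were not called. Olig1 had 7644, 4426 and 4679.7 against 1949, 1022 and 3863, lower without overlap (-1.45 ± 1.1, limma adjusted p = 0.563). For Olig2 the counts were 2240.2, 721 and 416.1 against 609.7, 198.3 and 1303, with overlap (-0.7 ± 1.32, limma adjusted p = 0.864). Pdgfra was low in both groups, at 169.3, 271.9 and 49.8 against 151.3, 59.6 and 129.5 (-0.32 ± 0.9, limma adjusted p = 0.928). Of 4 tested Schwann cell myelin genes, none was called.

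In the phagocytes the 34 genes were measured at a much lower level. Within control cerebellum, 31 of the 34 were lower in CD11b+ than in GFP+ cells and none was higher, beside 6.91% and 19.3% of all genes tested. The median log2 difference of the 34 genes was -6.08, beside 1.8 over all genes. Without Gjb1 and Tmem125, 29 of 32 were lower. The mean of each gene in control CD11b+ cells, as a share of that in control GFP+ cells, had a median of 1.62%. Mbp had the most normalized counts, 9193, 10745.5 and 7809.7, which was 36% to 44% of those of the 34 genes. Per length, Evi2a had the highest mean, at 142.4, 64.9 and 98.1 FPKM, beside 65.6, 76.7 and 55.7 for Mbp. Evi2a, Trf and Tppp were not called. Evi2a had 5452, 2485 and 3757 in control CD11b+ cells, which overlapped control GFP+ cells (0.63 ± 1.83, limma adjusted p = 0.806). Trf had 2907, 913 and 2336, all below the control GFP+ libraries (-0.91 ± 0.46, limma adjusted p = 0.151). Tmem125 had no read in control CD11b+ cells, at least 2879-fold lower than in control GFP+ cells.

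As a measure of reads outside expressed genes, the FPKM of 1794 olfactory, vomeronasal and trace amine receptor genes, which are used mainly by sensory neurons of the nose, were taken in each library. Their mean ran from 0.055 to 0.131 in the control and from 0.113 to 0.234 in the RasV12 GFP+ libraries, and was 0.302, 2.509 and 0.32 in control CD11b+ and 5.297, 5.8 and 3.993 in RasV12 CD11b+ libraries. All 34 myelin genes lay above the 95th percentile of the receptor genes in each control GFP+ library, and 17, 17 and 18 did in the RasV12 GFP+ libraries. In control CD11b+ cells the numbers were 17, 6 and 17, and Mbp, Mobp, Evi2a, Car2, Qdpr and Trf lay above it in all 3. In RasV12 CD11b+ cells they were 3, 1 and 2, and no gene lay above it in all 3 libraries. Of the 34 genes, 23, 21 and 19 were at or below the receptor mean in these libraries.

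**Figure D4:**
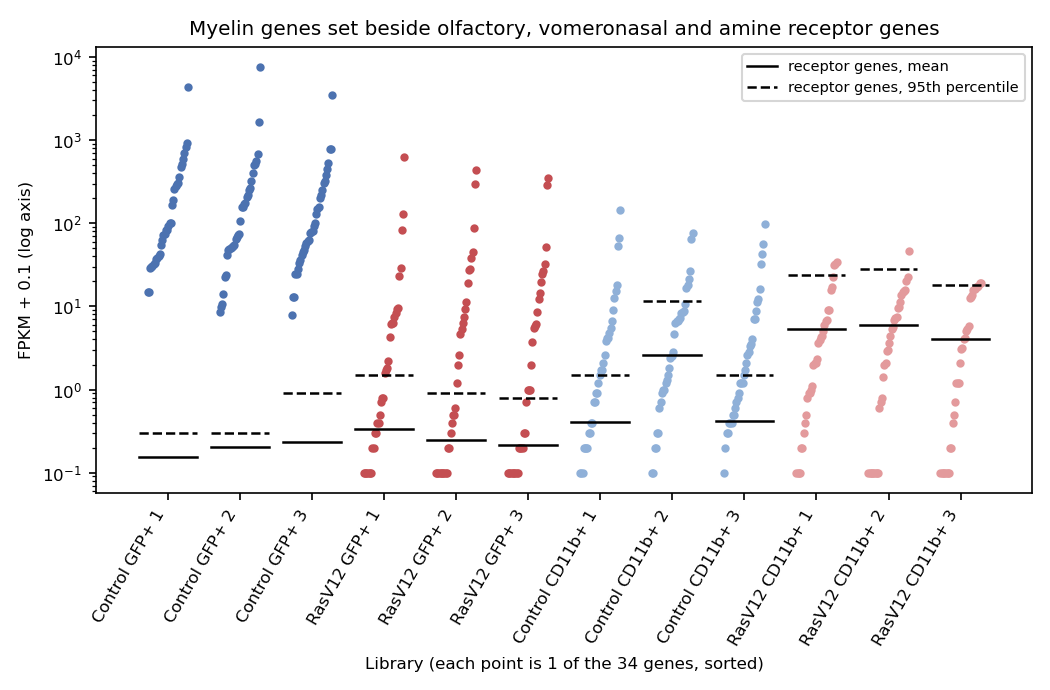
FPKM plus 0.1 of the 34 genes (points, sorted within each of the 12 libraries, log axis), with solid and dashed lines at the mean and 95th percentile of 1794 receptor genes in the same library. All points lie above the 95th percentile in the control GFP+ libraries, and 1 to 3 do in each RasV12 CD11b+ library.

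Between the phagocytes of tumors and of control cerebellum, 1 of the 34 genes was called higher, 1 lower and 32 were not called. Over all genes tested, 2.97% were called higher and 2.39% lower, so the share among the 34 was close to the background. The counts were 5 higher and 3 lower without control CD11b+ replicate 2, and 0 and 0 without control CD11b+ replicate 1 or 3. Over all 29835 genes tested, 3745 were higher and 1503 lower without replicate 2. They were 219 and 154 without replicate 1 and 245 and 137 without replicate 3, so the number of calls moved over all genes too. The median log2 change was 0.02, or 0.01 with genes without a read at their bound, beside 0.74 over all genes. Mbp had 3168, 6524 and 2399 normalized counts in RasV12 CD11b+ cells, all below the control CD11b+ libraries, but was not called (-1.32 ± 0.76, limma adjusted p = 0.277). Mog had 40.8, 25.4 and 56 in control and 53.5, 16.6 and 2.4 in RasV12 CD11b+ cells, with overlap (-1.42 ± 1.08, limma adjusted p = 0.406).

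Myrf was called higher in RasV12 CD11b+ cells, with 110.5, 77.8 and 44.7 normalized counts in control and 704.1, 736.6 and 565.7 in the tumors (3.17 ± 0.83, limma adjusted p = 0.0429). Its groups did not overlap. Its FPKM in the RasV12 libraries was 4.9, 5.2 and 4, beside receptor means of 5.297, 5.8 and 3.993, and with the receptor level subtracted its log2 change was -0.83. The call of Myrf held in 9 of 27 alternatives, whose adjusted p ran from 0.00227 to 0.617. Leaving out any 1 library ended the call except control CD11b+ replicate 2 and RasV12 GFP+ replicates 1 and 2, with an adjusted p of 0.167 without control CD11b+ replicate 3.

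Tppp was called lower, with 348.8, 715.5 and 964.2 in control and 13.4, 0 and 7.2 in RasV12 CD11b+ cells, and the groups did not overlap (-6.99 ± 1.52, limma adjusted p = 0.0222). The call of Tppp held in 20 of 27 alternatives, with adjusted p from 0.00167 to 0.143. The adjusted p was 0.0675 without control CD11b+ replicate 1, 0.097 without replicate 3 and 0.0573 without RasV12 CD11b+ replicate 2. Leaving out RasV12 CD11b+ replicates 1 and 2, whose depth was low, left 1 library in that group, so no call is read from it. The log2 change was then 2.94 for Myrf and -6.25 for Tppp. When control CD11b+ replicate 2 was also left out, these were 2.99 and -6.15.

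Within the tumors, 6 of the 34 genes were higher in CD11b+ than in GFP+ cells and 7 were lower, beside 29.8% and 10.2% of all genes. Tspan2, Hapln2, Ugt8a, Aspa, Klk6 and Myrf were the higher ones. Hapln2 had 0, 437.5 and 42 normalized counts in RasV12 CD11b+ cells, and its log2 difference went from 4.73 to 2.71 without RasV12 CD11b+ replicate 2 (limma adjusted p = 0.173). Ugt8a had 2589, 426.4 and 1175 normalized counts in RasV12 CD11b+ cells and Tspan2 had 516.9, 570.4 and 409, both above every RasV12 GFP+ library. The FPKM of Tspan2 there was 6.5, 7.2 and 5.2, beside receptor means of 5.297, 5.8 and 3.993. Tspan2 lay above the 95th percentile of the receptor genes in none of these libraries and Ugt8a in 1. Pllp, Cnp, Nfasc, Car2, Gsn, Cryab and Trf were the lower ones. With the receptor level subtracted, 1 gene was higher and 11 were lower, beside 2896 and 6229 of all 29835 genes tested. The calls of Hapln2, Ugt8a, Aspa, Klk6 and Myrf then ended, with log2 differences of 1.92, 3.49, 1.28, -0.24 and -0.71. Klk6 also lost its call with quantile normalization (1.29, limma adjusted p = 0.387). The log2 difference of Cnp went from -1.93 to -1.08 without RasV12 CD11b+ replicates 1 and 2, which left 1 library in that group. The calls of Hapln2, Pllp, Aspa and Cryab held in 13, 14, 20 and 22 of 27 alternatives. Hapln2 lost its call without any 1 GFP+ library, control CD11b+ replicate 3 or RasV12 CD11b+ replicate 3, with adjusted p of 0.0509 to 0.0903. For Pllp the adjusted p was 0.0505 to 0.103 without any 1 GFP+ library and 0.129 without RasV12 CD11b+ replicate 3. For Aspa it was 0.0561, 0.0541 and 0.0524 without RasV12 GFP+ replicates 1 and 3 and RasV12 CD11b+ replicate 2, and for Cryab 0.0871, 0.0524, 0.051 and 0.0502 without RasV12 GFP+ replicates 1 and 2 and RasV12 CD11b+ replicates 1 and 2. Trf had 494.6, 836.3 and 894.2 in RasV12 CD11b+ cells (-4.1 ± 0.46, limma adjusted p = 0.000192), and Car2 had 695.2, 603.7 and 769.3 (-4.74 ± 0.62, limma adjusted p = 0.000361). Neither overlapped the RasV12 GFP+ libraries.

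The difference of the RasV12 effects, that in CD11b+ minus that in GFP+ cells, was tested in the same fit. It was called above 0 in 19 of the 34 genes and below 0 in 1, and was not called in 14, beside 2.06% and 2.34% of all genes. Its median was 6.68 on the log2 scale, beside 0.07 over all genes. Without Gjb1 and Tmem125, 17 of 32 were above 0 and the median was 5.82. Klk6 had the largest difference, at 12.91. It had 0.8, 34.4 and 2.2 normalized counts in control and 89.1, 88.6 and 75.7 in RasV12 CD11b+ cells. The RasV12 effect on Klk6 in CD11b+ cells was not called (limma adjusted p = 0.0732). Its FPKM in the RasV12 CD11b+ libraries was 3.5, 3.5 and 3, below the receptor means of 5.297, 5.8 and 3.993. Trf had the opposite sign, at -3.18, and its adjusted p was 0.0556 and 0.0527 without RasV12 GFP+ replicates 2 and 3 and 0.053 without control CD11b+ replicate 3. Of those 17, Mobp, Tspan2, Mog, Hapln2, Ugt8a, Klk6 and Myrf kept their calls in all alternatives tried. Among these, only Ugt8a lay above the 95th percentile of the receptor genes in any RasV12 CD11b+ library, in 1. Hapln2, Klk6 and Myrf did so in no control CD11b+ library either, so a fall could not be read there. The part of these low levels in the difference was not tested. Without RasV12 CD11b+ replicates 1 and 2, the calls of Trf, Mbp, Mal, Gpr37, Gal3st1, Enpp2 and Qdpr ended, with adjusted p from 0.0536 for Mbp to 0.0929 for Gpr37, and the difference of Mal went from 9.88 to 4.27.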

How the data were processed

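RNA was extracted with Sepazol, amplified with the SMARTer Universal Low Input RNA Kit and made into libraries with Nextera XT, per the labels' protocols. The submitters' processing notes name bcl2fastq 2.17.1.14, HISAT2 2.1.0, featureCounts from Subread 1.6.2, DESeq2 1.20.0 and build GRCm38.p6; strand and overlap settings are not named there. The authors deposited normalized counts (a read signal per gene, scaled between libraries) and FPKM for 54547 genes. In each library at least 99.99% of the values above 0 were whole multiples of 1 step. The tolerance was 0.05 normalized counts, or 0.05 of the step where that was larger. Reads were recovered from these values, and the steps give the depths.

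Genes were tested with the trend option of limma 3.58.1 under R 4.3.3. The values were log2(normalized count + 1), and all 12 libraries entered 1 fit with a mean for each of the 4 groups. It covered 29835 genes with at least 10 in at least 3 libraries, with Benjamini-Hochberg adjustment over all of them. Alternatives were FPKM with a pseudocount of 0.1, other pseudocounts, filters and scalings, edgeR 4.0.16 and DESeq2 1.42.0 on recovered reads, array weights, a fit of the compared groups, a replicate block, a subtraction of the receptor level, and leaving out each library.

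The 34 genes, the other lists, the naming rule and the tests were chosen with earlier results of these data known. Values by library are given for Mbp, Mog, the 4 highest genes of each role in control GFP+ cells, genes called in CD11b+ cells or in the difference, genes called against the majority, and genes not called in GFP+ cells. Promoters came from RefSeq, with the printed ones from genes called in GFP+ cells. Of the other lists, some genes were not analysed here. Gene IDs were matched to GENCODE M21 for 98.3% of the table.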

Additional observations from a re-analysis of the deposited data

Results flagged for a closer look

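For 20 genes the RasV12 effect differed between CD11b+ and GFP+ cells by the interaction term of limma's fit, at a Benjamini-Hochberg adjusted p under 0.05. Each value is the RasV12 effect in CD11b+ minus that in GFP+ cells, on the log2 scale. Among the proteins of compact myelin the difference was 6.55 for Mbp, 7.39 for Mobp, 9.88 for Mal, 11.54 for Tspan2 and 3.49 for Cnp. Among surface and junction proteins it was 11.5 for Mog, 8.77 for Opalin, 7.49 for Gjb1, 11.69 for Hapln2, 11.62 for Tmem125 and 8.73 for Gpr37. Among the enzymes it was 12.16 for Ugt8a, 11.07 for Gal3st1, 7.9 for Aspa, 4.73 for Enpp2, 12.91 for Klk6 and 2.65 for Qdpr. It was 8.89 for Myrf and 3.25 for Gsn, and -3.18 for Trf, the one gene below 0. Gjb1 and Tmem125 passed the filter only through control GFP+ cells, so their values are descriptions. Of 26 alternatives, the call of Mal held in 12 and those of Opalin and Qdpr in 16 each. In all 19 genes above 0 the effect in GFP+ cells was a fall. Of the 34 genes, 28 lay above the 95th percentile of the receptor genes in no RasV12 CD11b+ library, and 15 in no control CD11b+ library. The part of these low levels in the difference was not tested.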

How the results depend on the processing

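In GFP+ cells the median log2 change of the 34 genes stayed below 0 under every alternative tried. The median, -7.11, was -6.46 with FPKM, -6.36 with a pseudocount of 10, -6.57 with upper-quartile scaling, -6.07 with quantile normalization and -6.62 with edgeR, and -7.38 to -6.58 with 1 library left out. The number lower was 23 to 29 and the number higher 0 to 1 with 1 library left out. The number higher was 0 without the filter, with the receptor level subtracted and with edgeR. The median over all genes, 0.56, was 0.91 with upper-quartile scaling and -0.12 with quantile normalization.

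In CD11b+ cells the counts higher and lower are set beside those over all genes in the same setting. With FPKM they were 3 and 2, beside 1615 and 993. They were 0 and 2 with a pseudocount of 0.5, beside 613 and 613, and 3 and 3 with 10, beside 3436 and 1300. With upper-quartile scaling they were 0 and 4, beside 627 and 1489, and with quantile normalization 0 and 2, beside 739 and 1682. Array weights gave 4 and 4, beside 2197 and 1611. Only the groups compared gave 0 and 0, beside 0 and 0. With the receptor level subtracted they were 0 and 3, beside 796 and 2615, and with DESeq2 3 and 4, beside 1316 and 1087. No gene was called higher without the filter or with edgeR, beside 569 of 45618 and 30 of 29835 genes. They were 0 and 3 without the low-depth RasV12 CD11b+ replicates 1 and 2, and 3 and 6 when control CD11b+ replicate 2 was also left out; both alternatives were chosen after seeing the data. With 1 library left out the counts were 0 to 5 and 0 to 3, beside 219 to 3745 and 137 to 1503 over all genes. The median, 0.02, was then -0.5 to 0.42. The median was -0.9 with quantile normalization and -0.84 with the receptor level subtracted.

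Between populations of control cerebellum the median, -6.08, was -5.29 with upper-quartile scaling, -5.48 with quantile normalization and -6.64 with the receptor level subtracted, and -6.35 to -5.9 with 1 library left out, with 28 to 31 genes lower and 0 higher. In the tumors the number higher was 3 with quantile normalization, beside 4149 over all genes, and 11 with DESeq2, beside 9691. With the receptor level subtracted 1 was higher and 11 were lower, beside 2896 and 6229. The median there was -1.14 with quantile normalization, -0.77 with the receptor level subtracted, -0.81 with edgeR and 0.95 with DESeq2. With 1 library left out the counts were 4 to 8 higher and 5 to 7 lower, beside 6137 to 9525 and 1977 to 3312 over all genes. The median was then -0.29 to 0.81.

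The median difference of effects, 6.68, was 5.53 with upper-quartile scaling, 5.11 with quantile normalization, 5.49 with the receptor level subtracted, 5.39 with edgeR, 5.43 without the low-depth libraries and 5.86 without these and control CD11b+ replicate 2. The number below 0 was 0 without the low-depth libraries. With 1 library left out the median was 5.95 to 6.97, with 14 to 22 genes above and 0 to 1 below 0. Signs turned with the receptor level subtracted, to -0.83 for Myrf in CD11b+ cells, to -0.24 for Klk6 and -0.71 for Myrf between populations of the tumors, and to -0.84 for Gsn in the difference. The cause of these changes was not tested.

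With the replicate number as a block, 1 gene was higher and 27 lower in GFP+ cells, and 20 were above and 1 below 0 in the difference. The counts of the other comparisons were the same, but Pllp lost its call between populations of the tumors (adjusted p = 0.054), and Ermn was called in GFP+ cells (0.042). Same-numbered libraries deviated together with r of -0.029 to 0.09, and not every library correlated best with its own number, so the numbers were not taken to pair libraries. The depth of the first and second RasV12 CD11b+ libraries, and the receptor level of all RasV12 CD11b+ libraries, limit what can be read at low counts. The third, with 23589310 reads, had a receptor mean of 3.993 FPKM, and 2 of the 34 genes lay above its receptor 95th percentile.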
